A study of Mus musculus with 8 samples.

Results

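The Z-disc set comprised 10 genes whose proteins sit in or at the Z-disc of striated muscle: Ldb3, Actn2, Myoz1, Myoz3, Tcap, Myot, Flnc, Pdlim3, Pdlim5 and Pdlim7. They were chosen by symbol, and every alternative polyadenylation site (APS) that the deposited table assigns to such a symbol was taken, which gave 135 of 56483 APSs and 10 of 15378 genes. The study asked how transcript ends in gastrocnemius muscle, a mixed but mostly fast muscle of the calf, change when a catalytic subunit of AMP-activated protein kinase (AMPK) is missing. WTTS-seq (whole transcriptome termini site sequencing), a method that captures poly(A) RNA and starts each read at a transcript's 3′ end, was run on male mice in 4 groups, AMPKα1 KO, AMPKα1 WT, AMPKα2 KO and AMPKα2 WT,, with 2 mice per group and 1 library per mouse, 8 libraries in all. Both knockouts are global and lack part of the catalytic domain of Prkaa1 or Prkaa2. The sample labels give the strain C57BL/6 and the stage adult for every mouse. The study's methods instead place the AMPKα1 KO on 129S2/SvPas, give the AMPKα1 KO a younger age than the AMPKα2 KO, and state no age for the WT mice. Mouse line and age therefore cannot be told apart from the model, and KO was compared with WT only inside a model. This does not remove them, as KO and WT of a model may differ in age too. In AMPKα1 they may also differ in line, which the labels and methods leave unsettled.

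A sarcomere, the contractile unit of muscle, is bounded by a Z-disc on either side. Actn2 (α-actinin) crosslinks the actin filaments there, Tcap (telethonin) caps the ends of titin, and Flnc (filamin C) and Myot (myotilin) bind both actin and other Z-disc proteins. Myoz1 and Myoz3 (myozenins, also called calsarcins) tether calcineurin to α-actinin. Ldb3 (also known as ZASP or Cypher) and the PDLIM proteins carry a PDZ domain that binds α-actinin, and transcripts of Ldb3, Pdlim5 and Pdlim7 that end early encode shorter proteins without the LIM domains found in the long forms.

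The libraries held 2311242 to 3549156 counted reads. Reads of the 10 genes made up 1.27% to 1.76% of these in the 4 AMPKα1 libraries and 0.315% to 0.500% in the 4 AMPKα2 libraries. Transcripts of fast fibre, such as Ckm and Acta1, were abundant in all libraries, while of 4 cardiac markers 2 (Myl7 and Nppa) are not listed in the table, which leaves out sites under 16 reads in total, and the other 2 summed to 1.66 to 25.6 CPM over the libraries. The targeted genes gave no check of the genotype labels. Prkaa1 had 0 and 82 reads in AMPKα1 KO against 15 and 0 in AMPKα1 WT, and Prkaa2 lay at 25.5 and 27.9 CPM in AMPKα2 KO against 25.4 and 29.3 CPM in AMPKα2 WT. A read at the 3′ end lies outside the deleted part of either gene. Levels are given in CPM, the counts scaled to the reads assigned to genes (counts per 1e6) after TMM scaling within a model. Site levels use this same scaling, whereas site log2 fold changes come from a fit of sites with its own scaling. A site's log2 fold change can thus differ from the ratio of its CPM values, and is not on the scale of gene log2 fold changes. As each read is meant to mark 1 transcript end, CPM was not divided by transcript length. This need not hold for every read. In the AMPKα2 libraries, annotated ends held only 32.1% to 44.4% of the reads of all protein coding genes. In whole muscle, fewer fibres of a type and less RNA per fibre cannot be told apart. The replicates are separate animals, and p-values rest on the spread between 2 of them per group.

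Most reads of the set fell in APSs in or just past annotated terminal exons. An APS is a cluster of read ends and can be wide, so its reads need not share 1 end. The main APS of Tcap spanned chr11:98384089-98385485, more than its terminal exon at chr11:98384152-98384953. Those of Myoz1 (chr14:20649078-20649591) and Pdlim3 (chr8:45919204-45919730) were wide as well. The main APS of Tcap took 99.7% of the reads of its gene, that of Pdlim3 96.2%, Flnc 91.2%, Myot 89.8%, Pdlim7 86.1%, Actn2 85.8%, Ldb3 80.8% and Myoz1 78.3%. Pdlim5 and Myoz3 were split, with 32.0% and 49.4% at their main APS. The windows below show the last 30 bases up to and including 8 member sites, on the transcript strand (GRCm38, GENCODE vM21 transcripts), with the poly(A) signal AATAAA in capitals where a script found it. They are shown to set the most used sites of terminal exons beside other sites of the same transcripts that the results below describe. Internal exon means, here and below, any exon that is not a terminal exon, first exons included.

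Ldb3 short end, chr14:34561270-34561299, minus strand: ttgttttgaAATAAAgaggatttgaaatga
Ldb3 long end, chr14:34526722-34526751, minus strand: tggattctttttagcaaAATAAAattcaga
Ldb3 site inside the long terminal exon, chr14:34529178-34529207, minus strand: ggggaaatgactccaagaaatcaacagtga
Pdlim5 short end, chr3:142302309-142302338, minus strand: tgtAATAAAgttgtctgtaccgttgctcta
Pdlim5 site upstream in the same terminal exon, chr3:142302664-142302693, minus strand: attttaaagatcctgttatctactaaagga
Myoz1 end, chr14:20649107-20649136, minus strand: ggtaacagtcAATAAActtcaaggaaatga
Pdlim7 short end, chr13:55506773-55506802, minus strand: agcatggaAATAAAcattctcggccctgct
Tcap site in the internal exon, chr11:98383910-98383939, plus strand: tgggctgagtggaaagacctgactctgtct

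The main ends of Ldb3, Pdlim5, Myoz1 and Pdlim7 each had AATAAA within the window, as did that of Pdlim3, which is not printed. The main end of Actn2, also not printed, had none in its 30 bases. The Ldb3 site inside the long terminal exon, the upstream Pdlim5 site and the internal Tcap site had none, which says only that these letters are absent from the 30 bases. The 30 bases after the Ldb3 long end and after the site inside the same exon held runs of 9 and 7 As. Over all protein coding genes, 32.1% of 18484 windows that lay in 1 exon held AATAAA, 41.9% in terminal exons and 3.39% in internal exons. In the Z-disc genes 7 of 51 windows did (13.7%), 6 of 20 in terminal exons and 0 of 30 in internal exons. Chromosome 18, with Myot and Myoz3, was left out of all window counts, here and below.

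Across the set, levels in AMPKα1 KO lay mostly below WT and levels in AMPKα2 KO mostly at or above WT, but no gene passed the test in either model by edgeR. In AMPKα1 the median log2 fold change of the 10 genes was −0.70, against −0.03 over all 13941 genes tested, with 8 negative and 2 positive. In AMPKα2 it was 0.18, against −0.005 over 10552 genes, with 9 positive and 1 negative. Called means a Benjamini-Hochberg adjusted p under 0.1 in edgeR's quasi-likelihood test over all genes, and 0 of 10 members were called in AMPKα1 (background 0%, 0 of 13941 genes) and 0 of 10 in AMPKα2 (background 0.673%). At an unadjusted p under 0.05, 3 members and 587 genes passed in AMPKα1, and 1 member and 898 genes in AMPKα2. DESeq2 called 1 member in each, Pdlim7 in AMPKα1 (background 0.847%) and Tcap in AMPKα2 (background 0.562%). Both KO libraries lay below both WT libraries for 6 members in AMPKα1 (18.9% of all genes did) and above them for 1 (13.6%). In AMPKα2 both KO libraries lay above both WT libraries for 6 members (18.6% of all genes) and below for 0 (20.7%). The estimated biological coefficient of variation was 104% in AMPKα1 and 26.2% in AMPKα2, and the SEs of the members' log2 fold changes were 0.30 to 0.64 and 0.23 to 0.33. Scaling by library totals moved the median over all genes to 0.22 in AMPKα1 and −0.19 in AMPKα2, and the members' median to −0.43 and −0.01. Relative to the median of all genes, the members' median was −0.67 in AMPKα1 and 0.19 in AMPKα2, and −0.65 and 0.18 with library totals. This difference was −0.31 without AMPKα1 KO 2, −1.01 without AMPKα1 WT 2 and 0.36 without AMPKα2 KO 2.

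**Figure D1:**
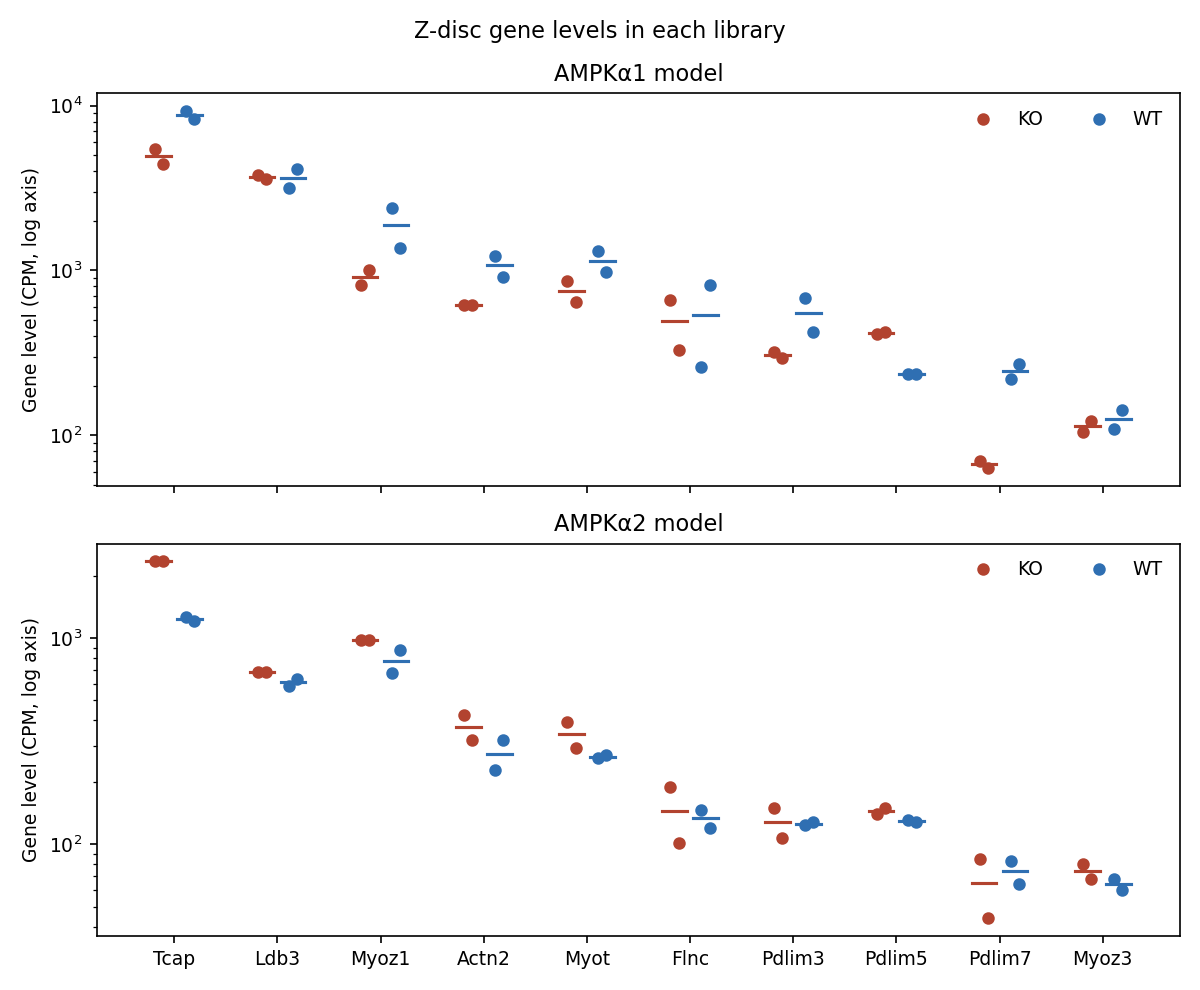
Gene level in CPM (log axis) of the 10 Z-disc genes in each library, AMPKα1 model above and AMPKα2 model below; red points are KO, blue points WT, and bars the means of 2 libraries. In AMPKα1 the KO points of Tcap, Myoz1, Actn2, Myot, Pdlim3 and Pdlim7 sit below the WT points, whereas in AMPKα2 the KO points of Tcap sit near 2354 CPM, above WT points near 1239 CPM.

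Tcap was the most abundant member in every library. Its level was 5428 and 4431 CPM in AMPKα1 KO and 9239 and 8247 CPM in AMPKα1 WT, so both KO libraries lay below both WT libraries (mean 4930 ± 705 against 8743 ± 701 CPM, SD, n = 2). In AMPKα2 the order was the opposite, with 2355 and 2354 CPM in KO against 1262 and 1215 CPM in WT (2354 ± 0.990 against 1239 ± 33.3 CPM). The groups of either model did not overlap. By edgeR the log2 fold change was −0.83 (SE 0.30, unadjusted p = 0.032, adjusted p = 0.763) in AMPKα1 and 0.93 (SE 0.27, unadjusted p = 0.0061, adjusted p = 0.296) in AMPKα2. DESeq2 called the AMPKα2 difference (adjusted p = 0.0727), and so did edgeR without a filter on low counts. So did edgeR on the reads at annotated ends alone (log2 fold change 0.97, adjusted p = 0.0625, background 0.921% of 7926 genes). This last sum was added after the data were seen. Reads at annotated ends are, here and below, all sense reads anywhere in an annotated terminal exon or within 2000 bases past it. The difference between the effects, AMPKα2 minus AMPKα1, was 1.73 (SE 0.42, unadjusted p = 0.0023, adjusted p = 0.338) by edgeR, which called 0 members (background 0.065%), and 1.68 by DESeq2 (adjusted p = 0.0087), which called Tcap alone among the members (background 1.17%).

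Nearly all of this came from the main APS of Tcap, the wide cluster placed at chr11:98384954, 1 base past the terminal exon. A minor APS at chr11:98383939, in an exon upstream of the terminal exon, had no read in any AMPKα1 library. In AMPKα2 it had 127 and 69 reads in KO against 35 and 27 in WT, and the groups did not overlap. For single sites, here and below, the share of all sites whose groups separate in this way was not computed. The log2 fold change there was 2.07 (SE 0.54, adjusted p = 0.521 by edgeR and 0.0698 by DESeq2), and it was 1.16 without AMPKα2 KO 1, the library with the most reads there. It was the only member APS that DESeq2 called in AMPKα2 (1 of 132 tested, background 0.192%).

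The myozenins, which share their binding to α-actinin and calcineurin, differed in level and in pattern. Myoz1 had 813 and 1003 CPM in AMPKα1 KO against 2389 and 1359 CPM in WT. In AMPKα2 it had 982 and 978 CPM in KO and 676 and 880 CPM in WT. The KO libraries thus lay below WT in AMPKα1 (log2 fold change −1.05, SE 0.40, unadjusted p = 0.040, adjusted p = 0.763) and above it in AMPKα2 (0.33, SE 0.27, adjusted p = 0.766), without overlap in either. At its main end, the site with AATAAA shown above, the AMPKα1 levels were 567 and 779 CPM in KO against 2202 and 1169 CPM in WT (log2 fold change −1.47, SE 0.43, unadjusted p = 0.0035, adjusted p = 0.543). A site further downstream at chr14:20647753 went the other way, with 441 and 433 reads in KO against 73 and 261 in WT. That site was singled out after its reads were seen.

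Myoz3 was the least abundant member in AMPKα2 WT, at 67.8 and 60.4 CPM against 80.4 and 68.1 CPM in AMPKα2 KO. In AMPKα1 its gene sum hardly differed, with 104 and 123 CPM in KO against 110 and 143 CPM in WT. Its 2 main sites differed in opposite directions in that model. The site at the annotated end had 34.4 and 46.1 CPM in KO against 91.2 and 99.1 CPM in WT, while a site 1722 bases upstream in the same terminal exon had 69.7 and 76.5 CPM in KO against 17.5 and 43.8 CPM in WT. Neither pair overlapped. The upstream site held 66.9% and 62.4% of the reads of both sites in AMPKα1 KO and 16.1% and 30.6% in AMPKα1 WT, against 42.2% to 52.2% in the 4 AMPKα2 libraries. Neither site was called for its use by edgeR (adjusted p = 0.903 and 0.754).

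Actn2, the actin crosslinker of the Z-disc, had 620 and 616 CPM in AMPKα1 KO against 1231 and 912 CPM in WT, a log2 fold change of −0.79 (SE 0.35, adjusted p = 0.763) without overlap. In AMPKα2 it had 422 and 319 CPM in KO against 231 and 320 CPM in WT, and the groups overlapped. The AMPKα2 log2 fold change of 0.43 (SE 0.27) was 0.11 when only reads at annotated ends were summed. Myot, which crosslinks actin with α-actinin, had a like pattern. It had 862 and 645 CPM in AMPKα1 KO against 1321 and 972 CPM in WT (log2 fold change −0.61, SE 0.37, adjusted p = 0.763), and 391 and 293 CPM in AMPKα2 KO against 263 and 270 CPM in WT (0.36, SE 0.25, adjusted p = 0.732, and 0.13 at annotated ends). For both genes the AMPKα2 KO 1 library was the highest of its model, and it also had the smallest share of reads at annotated ends.

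Flnc, which links the Z-disc to the membrane, varied more between mice of a group than between groups. Its level was 662 and 331 CPM in AMPKα1 KO and 258 and 818 CPM in AMPKα1 WT. In AMPKα2 it was 191 and 102 CPM in KO and 147 and 120 CPM in WT. Both models overlapped, and the log2 fold changes were −0.12 (SE 0.64) and 0.12 (SE 0.31). At the main end alone, chr6:29461886, AMPKα2 KO had 54.2 and 46.0 CPM against 85.4 and 71.8 CPM in WT, below WT without overlap (log2 fold change −0.79, SE 0.33, unadjusted p = 0.044, adjusted p = 0.648). Flnc sites in internal exons took 43.8% and 30.2% of its reads in AMPKα2 KO and 19.1% and 16.5% in AMPKα2 WT. In all 4 AMPKα1 libraries that share was 0%. Beside this, internal exons held 16.1% and 16.2% of the reads of all protein coding genes in AMPKα2 KO and 13.2% and 11.7% in AMPKα2 WT, and the part of this in the Flnc result was not tested.

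Among the PDLIM genes, Pdlim3 and Pdlim7 were lower in AMPKα1 KO and Pdlim5 higher. Pdlim3 (ALP) had 320 and 295 CPM in AMPKα1 KO against 682 and 422 CPM in WT (log2 fold change −0.84, SE 0.40, adjusted p = 0.763), and 151 and 108 CPM in AMPKα2 KO against 124 and 129 CPM in WT, where the groups overlapped. Pdlim7 (Enigma) had the widest separation of the set. Its AMPKα1 KO libraries held 70.0 and 63.5 CPM against 220.0 and 269 CPM in WT, or 66.7 ± 4.55 against 244 ± 34.6 CPM (SD, n = 2). The log2 fold change was −1.87 (SE 0.42, unadjusted p = 0.0035, adjusted p = 0.763) by edgeR and −1.83 (adjusted p = 0.0826) by DESeq2. In AMPKα2 the level was 85.5 and 44.1 CPM in KO and 83.6 and 64.7 CPM in WT, with overlap. The difference between the effects was 1.64 (SE 0.54, unadjusted p = 0.014, adjusted p = 0.551 by edgeR).

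Pdlim7 has 2 annotated terminal exons, and an APS at or next to each was lower in AMPKα1 KO. The short end had 65.98 and 49.99 CPM in KO against 178 and 238 CPM in WT. The long end at chr13:55498413, 3 bases past the second terminal exon, had 0 and 3 reads in KO against 48 and 28 in WT. A site further downstream, chr13:55497487, was not lower, with 8 and 46 reads in KO against 6 and 28 in WT. Both long end sites were singled out after their reads were seen, and their depth is low.

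**Figure D2:**
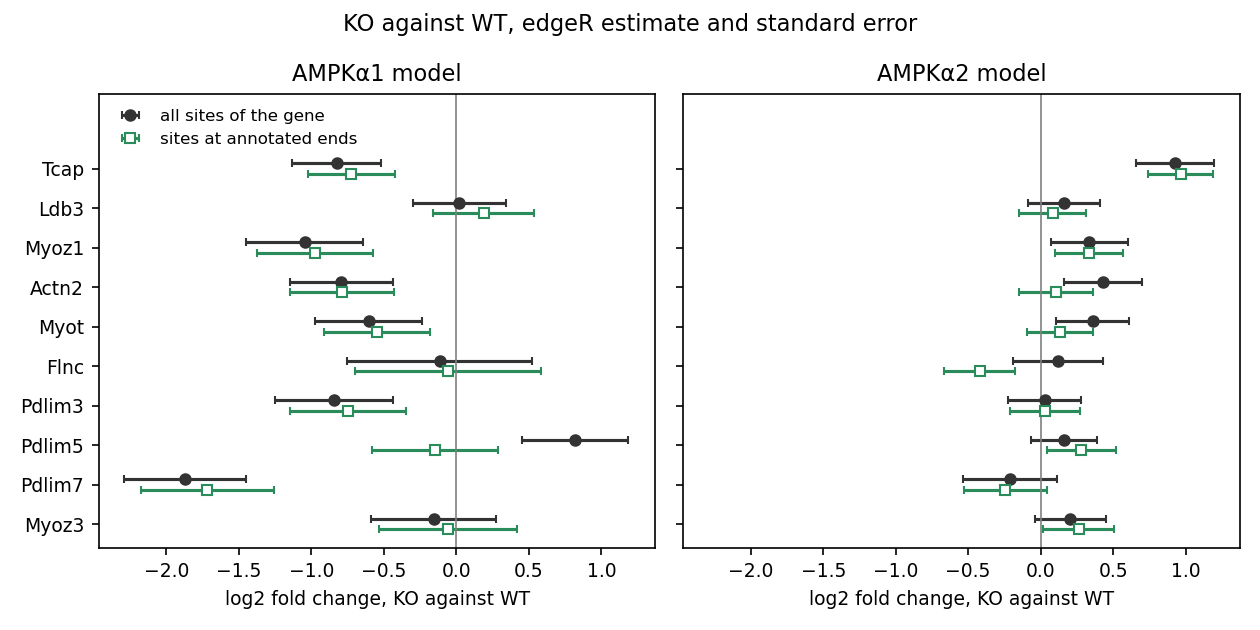
log2 fold change of KO against WT per Z-disc gene, AMPKα1 left and AMPKα2 right, with standard errors from edgeR. Filled circles sum all sites of a gene. Open squares sum only the sites at annotated ends, that is, in a terminal exon or up to 2000 bases past it. In AMPKα1, Pdlim5 moves from 0.82 to −0.15 when only annotated ends are summed, and in AMPKα2 Flnc moves from 0.12 to −0.42 while Tcap stays at 0.93 and 0.97.

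Pdlim5 (ENH) had 412 and 423 CPM in AMPKα1 KO against 236 and 237 CPM in WT, the only member whose KO libraries both lay above WT in that model (417 ± 7.42 against 237 ± 0.258 CPM, SD, n = 2). The log2 fold change was 0.82 (SE 0.36, unadjusted p = 0.063, adjusted p = 0.763), and −0.15 (SE 0.43) when only reads at annotated ends were summed. The excess in the sum lay at intronic sites. The most used of them, chr3:142333534, had 488 and 448 reads in AMPKα1 KO against 49 and 73 in WT, or 139 and 124 CPM against 26.8 and 21.2 CPM. Its log2 fold change was 2.32 (SE 0.65, unadjusted p = 0.0027, adjusted p = 0.543), and scaling by library totals called it (adjusted p = 0.094).

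This intronic site took 33.7% and 30.7% of the sense reads of Pdlim5 in AMPKα1 KO (32.2% ± 2.07, SD, n = 2) and 11.3% and 8.94% in WT (10.1% ± 1.68). The 95% Wilson intervals of the KO libraries ran from 28.4% to 36.2%, those of the WT libraries from 7.17% to 14.7%. The short terminal exon took 36% and 25.7% in KO against 68.4% and 56.6% in WT, and the other intronic sites together 30.4% and 40.4% against 18.7% and 28.3%. Over all protein coding genes, introns held 9.65% and 11.9% of reads in AMPKα1 KO and 6.37% and 9.15% in AMPKα1 WT, a difference in the same direction but smaller. In AMPKα2 the intronic site held 2.27% and 2.10% in KO and 1.57% and 6.96% in WT, and the short terminal exon 74.1% and 84.3% against 78.8% and 72.9%. The AMPKα2 groups overlapped in both shares. As a test of site use, the intronic site missed the threshold in AMPKα1 (adjusted p = 0.580 by edgeR).

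**Figure D3:**
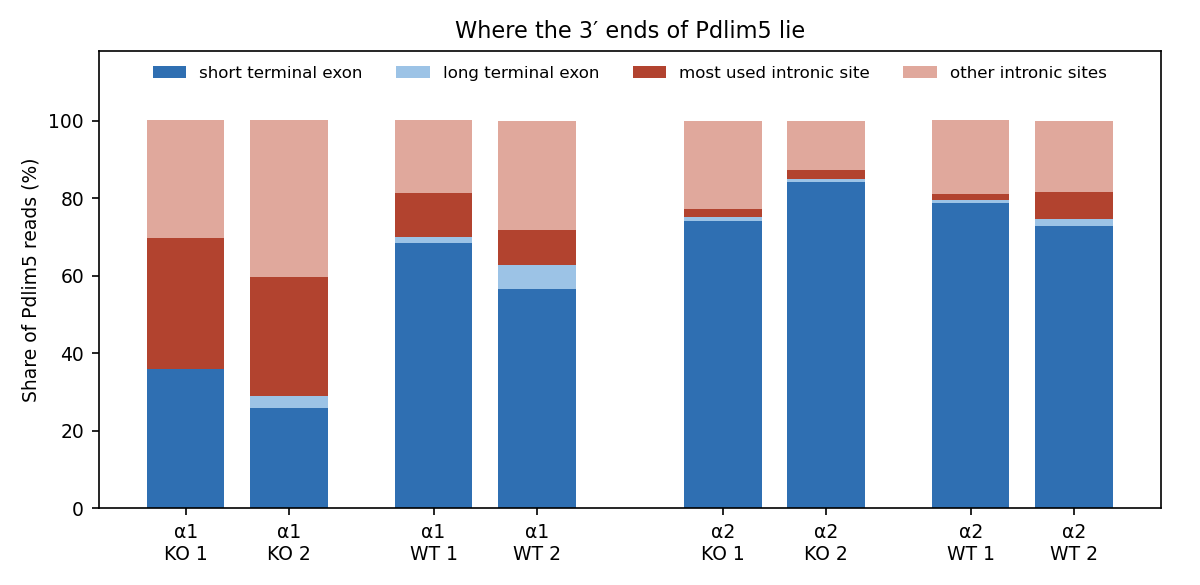
Share of the sense reads of Pdlim5 (percent) in each library by where the transcript end lies: short terminal exon, long terminal exon, the most used intronic site and the other intronic sites. In AMPKα1 KO the most used intronic site takes 33.7% and 30.7%, against 11.3% and 8.94% in WT, and it takes 1.57% to 6.96% in AMPKα2.

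Ldb3 was the second most abundant member in AMPKα1 and its sum differed little between KO and WT in either model. It had 3779 and 3603 CPM in AMPKα1 KO against 3154 and 4122 CPM in WT (log2 fold change 0.02, SE 0.32), and 683.0 and 682.9 CPM in AMPKα2 KO against 589 and 633 CPM in WT (0.16, SE 0.25, adjusted p = 0.902). The AMPKα1 groups overlapped, and in AMPKα2 both KO libraries lay above both WT libraries. The difference between the effects was 0.12 (SE 0.41). Of its 25 sites on chromosome 14, 9 lay in or just past a terminal exon, 2 in internal exons and 14 in introns. The gene has 2 annotated terminal exons (GENCODE vM21), the short one at chr14:34561261-34561881 and the long, more 3′ one at chr14:34526603-34529549. The short exon, whose end is the first window printed above, took most of the reads in all libraries.

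The share of terminal exon reads that fell in the long exon was higher in KO in both models. It was 16.9% and 15.8% in AMPKα1 KO against 9.64% and 9.54% in AMPKα1 WT, and 18.4% and 15.1% in AMPKα2 KO against 8.83% and 9.23% in AMPKα2 WT. No KO library overlapped a WT library. The means were 16.3% ± 0.759 and 9.59% ± 0.0693 in AMPKα1, a difference of 6.75 percentage points, and 16.8% ± 2.38 and 9.03% ± 0.289 in AMPKα2, a difference of 7.73 percentage points (SD, n = 2). The exact two-sided permutation test gave p = 0.33 in each model, the smallest value that 2 libraries against 2 allow. A test over all genes with more than 1 terminal exon, added after the shares were seen, gave the long exon a log2 ratio of 0.77 in AMPKα1 (unadjusted p = 0.279, adjusted p = 1.00) and 0.88 in AMPKα2 (unadjusted p = 0.0034, adjusted p = 0.538). That edgeR test called 0 of 6 member terminal exons in AMPKα1 (background 0%, 0 of 813, 29 with an unadjusted p under 0.05) and 0 of 4 in AMPKα2 (background 0%, 0 of 321, 9 with an unadjusted p under 0.05).

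The reads behind that share came from different sites in the 2 models. The most used site of the long exon, called the long end here, is chr14:34526722, inside the exon and upstream of its GENCODE end. In AMPKα1 it had 2087 and 2007 reads in KO against 462 and 1123 in WT. In CPM it had 594 and 554 against 252 and 325, above WT without overlap (log2 fold change 0.87, SE 0.44, unadjusted p = 0.063, adjusted p = 0.543). The short end had 10684 and 10694 reads against 4668 and 12094. The other long exon sites held 82 and 0 reads in KO, against 36 and 154 in WT. In AMPKα2 the same long end had 22 and 48 reads in KO against 47 and 42 in WT, and the CPM values of 14.0 and 18.9 against 13.7 and 19.8 overlapped. The other long exon sites held 115 and 172 reads in AMPKα2 KO against 101 and 64 in WT. When only the most used site of each exon was counted, the long end took 16.1% ± 0.382 in AMPKα1 KO against 8.75% ± 0.360 in WT. This was a difference of 7.32 percentage points. In AMPKα2 it took 3.82% ± 0.0503 against 3.5% ± 0.610, a difference of 0.323 percentage points, which is below the spread of the WT libraries. This count was added after the sites were seen.

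**Figure D4:**
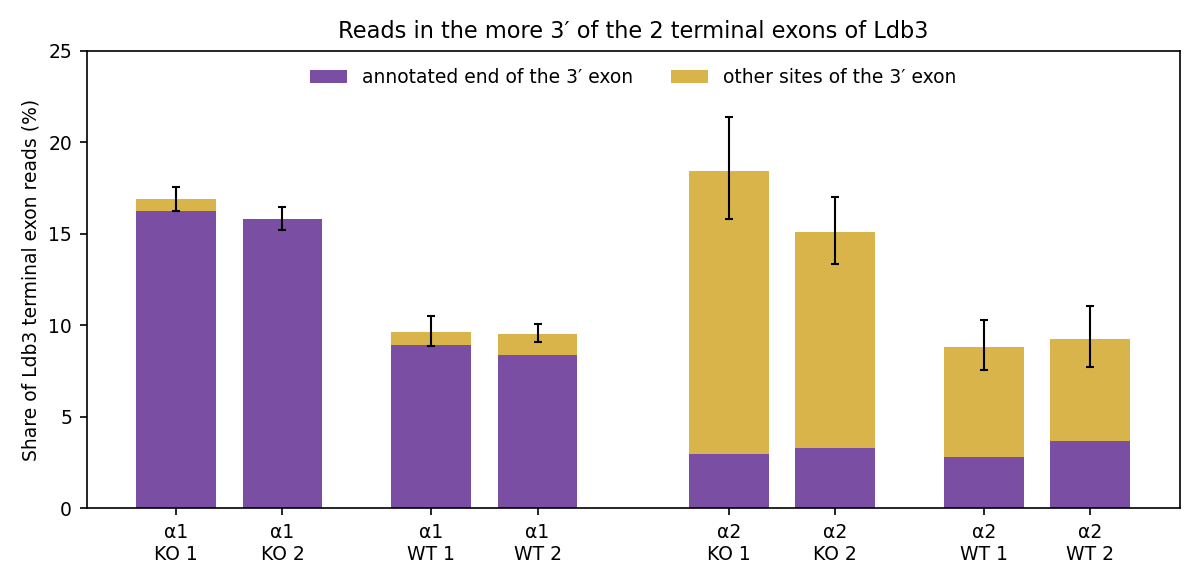
Share of Ldb3 terminal exon reads (percent) that fell in the long, more 3′ terminal exon in each library. Purple, labelled annotated end, is the most used site of that exon, and yellow its other sites. Error bars are 95% Wilson intervals of the total. The total is 15.1% to 18.4% in the 4 KO libraries and 8.83% to 9.64% in the 4 WT libraries, and the AMPKα2 bars consist mostly of the other sites.

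One of those other sites, chr14:34529178, was among the member sites that edgeR called for a difference of the KO effect between models. It is the Ldb3 window without a signal printed above, followed by 7 As. It had 0 and 0 reads in AMPKα1 KO against 35 and 99 in WT, and 54 and 126 reads in AMPKα2 KO against 56 and 47 in WT (34.4 and 49.6 CPM against 16.4 and 22.2 CPM). With the floor of 3 reads per library in place of 0, the AMPKα1 KO level was 28.4-fold lower. The floor covers counting error and not the spread between mice. KO thus lay below WT in AMPKα1 and above it in AMPKα2, with no overlap in either. The AMPKα1 difference was called by DESeq2 (adjusted p = 0.0324) and not by edgeR (adjusted p = 0.543), and the difference between models by both (adjusted p = 0.00425 and 2.34e-04). Scaling by library totals ended the edgeR call between models (adjusted p = 0.757), and so did leaving out AMPKα2 KO 1 (0.180) or AMPKα2 KO 2 (0.257).

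An intronic Ldb3 site, chr14:34537269, had 0 and 0 reads in AMPKα1 KO against 45 and 94 in WT, 30.8-fold lower at the same floor. In AMPKα2 it had 2 and 9 reads in KO against 5 and 0 in WT. DESeq2 called it in AMPKα1 (adjusted p = 0.0225) and edgeR did not (0.543). The intronic site with most reads, chr14:34570385, lay below WT in both models, with 70.8 and 52.5 CPM against 214 and 116 CPM in AMPKα1 and 19.1 and 22.0 CPM against 24.6 and 31.6 CPM in AMPKα2. Its log2 fold changes were −1.56 (SE 0.60, adjusted p = 0.543) and −0.57 (SE 0.38, adjusted p = 0.732). Another intronic site, chr14:34558980, had 35.0 and 14.1 CPM in AMPKα1 KO against 63.9 and 67.8 CPM in WT.

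Several other Ldb3 sites were uneven between models or libraries. The sites at chr14:34567506 (internal exon), chr14:34571717, chr14:34578585 and chr14:34579171 (introns) had no read in the 4 AMPKα1 libraries and 69 to 251 reads in AMPKα2. All 82 AMPKα1 reads of the site at chr14:34528835 came from AMPKα1 KO 1, and the AMPKα2 libraries held 5 and 0 reads in KO, against 1 and 0 in WT. Near the start of the long terminal exon, chr14:34529336 had 0 and 0 reads in AMPKα1 KO against 1 and 15 in WT, and 15 and 8 reads in AMPKα2 KO against 1 and 2 in WT (AMPKα2 log2 fold change 3.19, SE 0.94, unadjusted p = 0.0093, adjusted p = 0.602).

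Over all member sites, 0 of 66 tested were called in AMPKα1 by edgeR (background 0.00454%, 10 members and 3.07% of all sites with an unadjusted p under 0.05) and 0 of 112 in AMPKα2 (background 0.056%, 14 members and 7.59% of all sites with an unadjusted p under 0.05). DESeq2 called 2 of 80 in AMPKα1, both in Ldb3 (background 0.442%), and the internal Tcap site in AMPKα2. Site use, the level of a site against the other sites of its gene, was called for 0 of 65 member sites in AMPKα1 (background 0.00601%) and 0 of 112 in AMPKα2 (background 0.0204%). At an unadjusted p under 0.05 it was 4 members in each, against 2.39% of all sites in AMPKα1 and 3.3% in AMPKα2. The difference between models was called for 2 of 135 member sites by edgeR (background 0.143%) and 3 by DESeq2 (background 0.375%). Besides the Ldb3 site, edgeR called the upstream site of the short terminal exon of Pdlim5, chr3:142302664. It had 0 and 0 reads in AMPKα1 KO against 31 and 50 in WT, 18.7-fold lower with 3 reads in place of 0. In AMPKα2 it had 30 and 47 reads in KO against 65 and 31 in WT, and the groups overlapped. The adjusted p for the difference was 0.0280 by edgeR and 0.0119 by DESeq2, and 0.757 by edgeR with library totals. Sites with no read in both KO libraries and over 3 reads in both WT libraries were 3 of 66 among the members in AMPKα1, where they made up 5.63% of all sites, and 0 of 112 in AMPKα2 (0.134%). The reverse, no read in both WT libraries and over 3 in both KO libraries, held for 0 members in AMPKα1 (1.4% of all sites) and 0 in AMPKα2 (0.0301%).

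The median log2 fold change of member sites was −0.36 in AMPKα1, against 0.02 over all sites. Without AMPKα1 WT 2 it was 0.11 (0.74 over all sites), without AMPKα1 KO 1 −0.55 (−0.35), without AMPKα1 KO 2 −0.98 (−0.63), and with library totals 0.02 (0.38). In AMPKα2 it was 0.66, against 0.01. The AMPKα2 median was 0.05 without AMPKα2 KO 1 and was 1.13 without AMPKα2 KO 2. In AMPKα2, 13 of 13 tested Myoz1 sites, 16 of 19 Actn2 sites, 14 of 16 Flnc sites, 17 of 22 Ldb3 sites and 11 of 15 Myot sites had a positive log2 fold change, whereas 7 of 11 Pdlim5 sites had a negative one.

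Many minor sites of the Z-disc genes were read in AMPKα2 libraries only. The table lists sites with at least 16 reads over all 8 libraries. A site at 0 in a model is therefore listed only through its reads in the other model. Of the 135 sites, 55 had no read in any AMPKα1 library (40.7%, against 12.6% of all sites), and 3 had none in any AMPKα2 library (2.22%, against 11.4%). Of the 55, 15 were in Actn2, 14 in Flnc, 8 in Ldb3, 7 in Myot, 3 in Myoz1 and 2 each in Myoz3, Tcap, Pdlim3 and Pdlim7. Sites in internal exons stood out, with 32 of 36 at 0 in AMPKα1 (88.9%), against 43.7% of the 5085 internal exon sites of protein coding genes. The share was 24.1% against 7.59% for introns and 30.4% against 5.76% for terminal exons. None of the 36 internal exon sites was at 0 in all AMPKα2 libraries, which the filter fixed in advance for the 32. The mouse line, age and any other difference between the models cannot be told apart here.

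**Figure D5:**
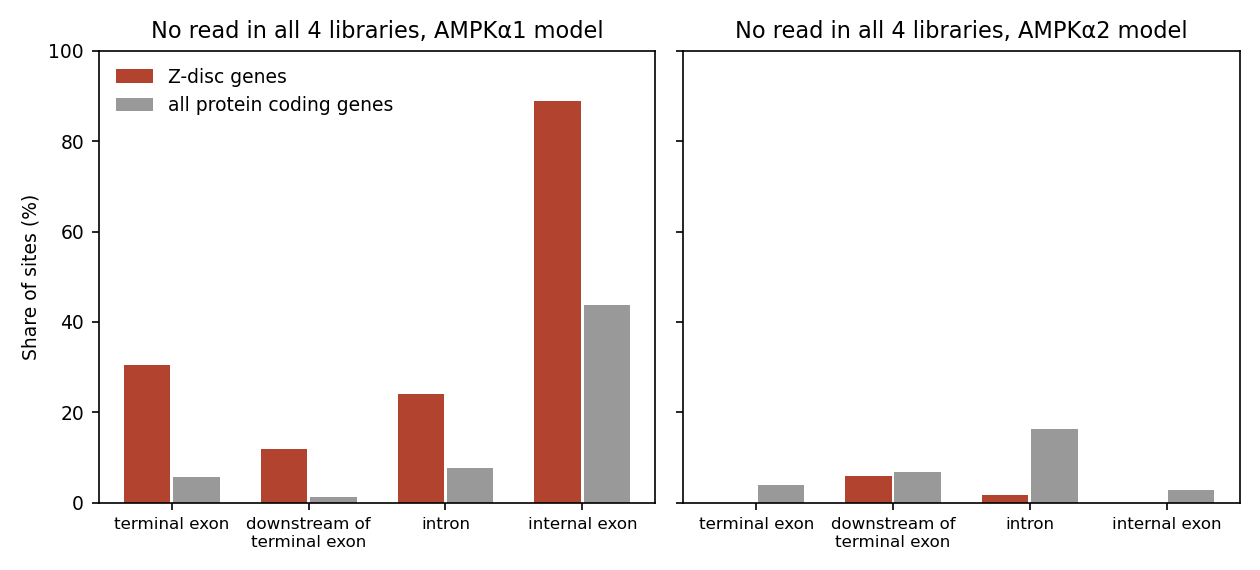
Share of sites (percent) with no read in all 4 libraries of the AMPKα1 model (left) and of the AMPKα2 model (right), by location, for Z-disc genes (red) and all protein coding genes (grey). In AMPKα1 the internal exon bar of the Z-disc genes stands at 88.9% against 43.7%, and in AMPKα2 it is at 0%. A site at 0 in a model passed the filter of 16 reads through the other model.

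The same contrast appeared in where the reads fell. Annotated ends, meaning whole terminal exons and the 2000 bases past them, held 94.5% to 96.9% of the members' reads in the AMPKα1 libraries. In the AMPKα2 libraries they held 78.9% to 89%. Over all protein coding genes they held 80.0% to 87.7% and 32.1% to 44.4%. Among the AMPKα2 libraries AMPKα2 KO 1 was lowest on both counts, with 78.9% for the members and 32.1% for all. In that library annotated ends held 41.7% of Actn2 reads and 42.1% of Flnc reads, against 73.0% and 63.2% in AMPKα2 KO 2, and 68.7% to 74.9% and 74.0% to 75.7% in AMPKα2 WT. Windows that end at internal exon sites of the members were seldom followed by a run of As: 1 of 30 met the rule of at least 7 consecutive As or 8 in 10 bases (3.33%), against 21.4% of the 4635 such windows of protein coding genes.

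A list of 35 other Z-disc genes was read out beside the set. Like the set, it was chosen with earlier results of these data known, so it is no independent check. In AMPKα1 0 of 34 tested were called by edgeR, and 2 had an unadjusted p under 0.05 (4.21% of all genes did). The median log2 fold change was −0.38. Synpo2 (myopodin) had 57.2 and 20.7 CPM in KO against 225 and 108 CPM in WT (−2.10, SE 0.68, unadjusted p = 0.021). Synpo2l, its paralogue, had 265 and 232 CPM against 491 and 451 CPM (−0.92, SE 0.37, unadjusted p = 0.043). The co-chaperone Bag3 had 237 and 254 CPM against 192 and 152 CPM (0.51, SE 0.39, unadjusted p = 0.237), and Nebl (nebulette) had reads in AMPKα1 KO 2 alone among the AMPKα1 libraries. In AMPKα2, 2 of 33 were called (0.673% of all genes were), 5 had an unadjusted p under 0.05 (8.51% of all genes), and the median was 0.17. Hspb7, a small heat shock protein that binds filamin C, rose, with 126 and 168 CPM in KO against 50.9 and 41.5 CPM in WT (1.67, SE 0.26, adjusted p = 0.0200). Xirp1 (Xin), an actin-binding protein that rises with muscle repair, fell, with 31.2 and 32.7 CPM against 101.1 and 99.1 CPM (−1.65, SE 0.25, adjusted p = 0.0170). Ankrd1, a stress-responsive titin-binding protein, had 8.3 and 10.6 CPM against 47.9 and 18.4 CPM (−1.81, SE 0.47, adjusted p = 0.253), and Synpo2 had 256 and 299 CPM against 121 and 210 CPM (0.75, SE 0.29, adjusted p = 0.516).

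The sum of the slow fibre markers was higher in KO than in WT without overlap in both models. That of the fast fibre markers was lower in AMPKα1 KO. Each gene of both lists had reads in every group. A sum can follow its most abundant genes, and single markers were not compared. Of all single genes, KO lay above WT without overlap for 13.6% in AMPKα1 and 18.6% in AMPKα2, and below for 18.9% and 20.7%. The summed level of 8 fast fibre genes was 83718 to 97953 CPM in AMPKα1 KO and 110259 to 190002 CPM in WT, and 65245 to 81146 CPM in AMPKα2 KO against 61864 to 66344 CPM in WT. The sum of 6 slow fibre genes was 2229 to 5115 CPM in AMPKα1 KO against 1576 to 2006 CPM in WT, and 2226 to 2267 CPM in AMPKα2 KO against 686 to 1466 CPM in WT. The sum of 5 fibroblast genes was 10992 to 11079 CPM in AMPKα1 KO against 12201 to 15863 CPM in WT, and 2132 to 3676 CPM in AMPKα2 KO against 1686 to 2229 CPM in WT. In AMPKα1, 3 further marker sums did not overlap between the groups: Schwann cell, 458 to 566 CPM in KO against 627 to 1159 CPM in WT, smooth muscle, 85.6 to 103 CPM against 114 to 188 CPM, and macrophage, 45.3 to 45.5 CPM against 26.2 to 33.3 CPM. In AMPKα2 the endothelial sum was 25.2 to 33.2 CPM in KO against 34.2 to 34.9 CPM in WT. The part of these markers in the results was not tested.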

How the data were processed

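Total RNA of gastrocnemius muscle was made into WTTS-seq libraries and sequenced on an Ion PGM instrument. According to the methods of the study, the authors filtered reads for quality, trimmed leading Ts, kept reads of at least 16 bases, mapped them with TMAP to the mouse genome (GRCm38.p5 per the labels), took read ends as sites, clustered those within 24 bases, dropped sites below 16 reads in total and named their genes with Cuffcompare. The deposited values are raw counts of reads per APS, with no normalization. Trimming of Ts and oligo(dT) priming can place ends in A-rich stretches inside transcripts.

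Here counts were summed per gene over all sites that carry its symbol. Reads at sites without a gene (1.88% to 17.9% per library) were left out of gene-level library sizes. Sites were placed in GENCODE vM21 exons, and a terminal exon includes the 2000 bases downstream. All sense sites in that stretch count as at annotated ends. KO was compared with WT within each model by edgeR 4.0.16 (R 4.3.3, limma 3.58.1): TMM, robust quasi-likelihood fit, features with at least 16 reads over the libraries of the fit, Benjamini-Hochberg adjustment over all features. SEs were derived from the F statistic. The difference of the KO effects was fitted over all 8 libraries as genotype by model, with a spread shared by both models. Site use and terminal exon use were tested with diffSpliceDGE. DESeq2 1.42.0 with its defaults, the tool of the study's methods, was an alternative, as were other scalings, filters, a replicate block and each library left out. Intervals of shares are 95% Wilson intervals, and a floor of 3 reads per library stands for 0. Both cover counting error only, as reads were amplified by PCR and carry no molecular identifier. Scripts were tested on simulated data.

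The members and gene lists were chosen with earlier results of these data known. Named sites are, per gene, the most used site and sites with at least 10% of its reads, Ldb3 sites with at least 50 reads, sites called by either tool, and the 3 lowest p-values per direction and model, of which the text gives those that bear on a comparison. Of the 35 other genes, those called and the 2 lowest p-values per direction and model are named. For Ldb3, Actn2 and Tcap, genes with the most similar log2 CPM are named, and 1 such gene is not reported here. Same-numbered KO and WT libraries came from different mice, and their deviations from the group means correlated at 0.05 (AMPKα1) and −0.01 (AMPKα2) over 9145 genes, so they were not treated as pairs. Protein sequences and genome sequence outside transcripts were not used here. Tables and figures were made in Python 3.11.15 (scipy 1.17.1, pandas 2.3.3, numpy 2.4.6, matplotlib 3.10.9).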

Additional observations from a re-analysis of the deposited data

Results flagged for a closer look

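At 2 member sites, 1 in Ldb3 and 1 in Pdlim5, edgeR called a difference of the KO effect between the models. That fit shares a spread over both models, whose site-level coefficients of variation differed (156% in AMPKα1, 38.8% in AMPKα2, 110% in the shared fit). The SE of the difference was 1.166 for Ldb3 and 1.268 for Pdlim5. For the AMPKα1 effect alone it was larger, 2.455 and 3.139. The p-values of the difference thus rest in part on the narrower spread of AMPKα2. The site inside the long terminal exon of Ldb3, chr14:34529178, had 0 and 0 reads in AMPKα1 KO and 35 and 99 in WT, but 54 and 126 reads in AMPKα2 KO and 56 and 47 in WT (adjusted p of the difference = 0.00425 by edgeR). The upstream site in the short terminal exon of Pdlim5, chr3:142302664, had 0 and 0 reads in AMPKα1 KO and 31 and 50 in WT, and 30 and 47 against 65 and 31 reads in AMPKα2 (adjusted p = 0.028 by edgeR). Over the alternatives the adjusted p ran from 2.34e-04 to 0.757 for the Ldb3 site and from 0.00572 to 0.757 for the Pdlim5 site. The highest value came from library totals in both. Leaving out AMPKα2 KO 1 or AMPKα2 KO 2 ended both calls, at 0.180 and 0.257 for Ldb3 and 0.572 and 0.433 for Pdlim5, and leaving out AMPKα2 WT 1 or AMPKα2 WT 2 ended that of Pdlim5, at 0.190 and 0.331.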

How the results depend on the processing

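Depth and 2 mice per group set the limits: a floor of 3 reads corresponded to 0.828 to 1.91 CPM, and in AMPKα1 the spread between mice was wide. Actn2, Myoz1, Tcap and Myot kept their direction in 13 of 13 alternatives in both models, as did Pdlim3 and Pdlim7 in AMPKα1. The alternative with an adjusted p under 0.05 reuses the main fit, so its direction was fixed in advance. Their log2 fold changes in AMPKα1 ranged from −0.96 to −0.52, −1.36 to −0.58, −0.99 to −0.57, −0.83 to −0.33, −1.11 to −0.46 and −2.01 to −1.64.

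Counts of called member genes, 0 in every comparison by edgeR, became 1 with DESeq2 in AMPKα1, in AMPKα2 and for the difference between models, and 1 in AMPKα2 with no filter or with sites at annotated ends only. Counts of called member sites, 0 in AMPKα1, became 2 with DESeq2, 1 with library totals and 3 with all 8 libraries in the fit, and ranged from 0 to 2 when a library was left out (2 without AMPKα1 WT 2). In AMPKα2 the count of 0 became 1 with DESeq2 and 3 with no filter. The 2 sites called for the difference became 0 with library totals, and 0 to 5 when a library was left out (4 without AMPKα1 KO 1, 5 without AMPKα1 KO 2, 4 without AMPKα1 WT 2, 0 without AMPKα2 KO 1, 0 without AMPKα2 KO 2, 1 without AMPKα2 WT 1 and 1 without AMPKα2 WT 2). In AMPKα2, site use and terminal exon use calls ranged from 0 to 1 when a library was left out. Both single calls came without AMPKα2 KO 2, and the terminal exon was the long one of Ldb3. The AMPKα2 difference in the long exon share of Ldb3 was 0.323 percentage points when only the most used site of each exon was counted. Fewer sites then enter, but no further cause was tested.

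With the replicate number as a block, the AMPKα2 member sites called became 2 (the internal Tcap site, adjusted p = 0.0150, and the Ldb3 site chr14:34529336, adjusted p = 0.0917) and those for the difference became 1, since the Pdlim5 site was lost (adjusted p = 0.209). The block turned the AMPKα1 log2 fold change of Flnc to 0.025 and changed no other call of a member gene. The numbers do not pair the mice.

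Some values changed sign, including those of Pdlim5 in AMPKα1 (0.82) and for the difference (−0.68). With library totals the log2 fold change became −0.018 for Ldb3, −0.0055 for Myoz3, −0.17 for Flnc, −0.20 for Pdlim3 and −0.012 for Pdlim5 in AMPKα2, 0.076 for Myoz3 and 0.028 for Flnc in AMPKα1, and −0.27 for Ldb3, −0.081 for Myoz3 and −0.19 for Flnc for the difference. With annotated ends only it became −0.15 for Pdlim5 in AMPKα1, −0.42 for Flnc in AMPKα2, and −0.13 for Ldb3, −0.40 for Flnc and 0.39 for Pdlim5 for the difference. When a library was left out, the values that changed sign ranged from −0.16 to 0.26 for Ldb3, −0.33 to 0.084 for Myoz3 and −0.72 to 0.98 for Flnc in AMPKα1. In AMPKα2 the ranges were −0.40 to 0.50 for Flnc, −0.22 to 0.24 for Pdlim3 and −0.75 to 0.19 for Pdlim7. For the difference they were −0.083 to 0.23 for Ldb3 and −0.86 to 0.83 for Flnc. The cause of these changes was not tested. Of the other values of single genes and sites, 546 stayed on the same side of the threshold with the same direction, 19 passed it and 9 lost it.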

Other observations

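The genes whose log2 CPM followed Ldb3 most closely over the 8 libraries, among 9145 genes, were Flrt1 (Pearson r = 0.982), Bcl9l (0.981), Rarb (0.978), Slitrk3 (0.976) and Pla2g4e (0.974). For Actn2 they were Spry1 (0.964), Ndufa4l2 (0.95), Idh3a (0.946), Ppp1r16a (0.94) and Hibch (0.935), and for Tcap Rps12-ps4 (0.911), Mrgbp (0.88), Gm17850 (0.866) and Sept2 (0.866). The 8 libraries are of 2 models, and likeness within a model was not computed.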
